A study of Mus musculus with 4 samples.

Results

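The cells described here are digit myeloid cells chosen by their summed transcripts of Lyve1, Folr2, Cbr2 and F13a1, genes often found in tissue-resident macrophages. They came from 4 single-cell RNA libraries of FVB/NJ wild-type mice aged 8 weeks: 1 of unamputated, homeostatic tissue from the mid-digital region (P2), and 1 each of fibrosing P2 tissue at 12, 17 and 28 days post-amputation (dpa), a non-regenerative level. The labels describe every library as pooled from male and female animals. Dissected tissue was dissociated enzymatically (collagenase I plus trypsin), treated with ACK buffer against red cells and sorted for cells that exclude propidium iodide, before 10x Chromium 3' v3 library preparation. A barcode was kept with at least 500 genes, at least 1000 unique molecular identifiers (UMIs, counted transcripts) and at most 10% mitochondrial UMIs. A myeloid cell had no Cdh5 UMI and at least 3 UMIs of Csf1r, Lyz2 and C1qb together. A member had at least 4 UMIs over Lyve1, Folr2, Cbr2 and F13a1, and more than in each of 4 other myeloid sums, called here by their first genes: Ms4a7 (with Ms4a14 and Apoc2), Acp5 (with Clec5a and Matk), Ear2 (with Adgre4, Plac8 and Ly6c2) and Cd209a (with Flt3 and Klrb1b). Of 39266 barcodes past the filter, 2427 were members, chosen by the measured UMIs of these genes. In the unamputated and 12 dpa members F13a1 was often the only one of the 4 genes detected. In the unamputated library such members carried more of several monocyte genes than those with the other rule genes, as given below.

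Resident macrophages live in connective tissue beside vessels and nerves, where they clear debris, take up proteins and iron, secrete growth factors and turn over matrix. In skin and other organs they are often told from monocyte-derived cells by Lyve1, a hyaluronan receptor, and Folr2, a folate receptor, together with Mrc1 and Cd163, while recently recruited cells carry Ccr2, Ly6c2 and often MHC class II. F13a1, which encodes the A subunit of the clotting transglutaminase factor XIII, is made by resident macrophages and also by monocytes.

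All 4 rule genes lie on the minus strand in GRCm38: Lyve1 at chr7:110850607-110863239, Folr2 at chr7:101839988-101857194, Cbr2 (carbonyl reductase 2) at chr11:120729489-120732114 and F13a1 at chr13:36867178-37050244. The 250 bases before the first listed RefSeq start (GRCm38.p6) are shown for Folr2, Cbr2 and F13a1, as genes that chose the members. Capitals mark GAGGAA, a core of the site bound by the myeloid factor PU.1, and TGCTGA, a half-site of MAF factors, both searched on both strands. The windows are chr7:101857191-101857440 for Folr2, chr11:120732022-120732271 for Cbr2 and chr13:37050245-37050494 for F13a1, each printed 5' to 3' on the minus strand.
Folr2: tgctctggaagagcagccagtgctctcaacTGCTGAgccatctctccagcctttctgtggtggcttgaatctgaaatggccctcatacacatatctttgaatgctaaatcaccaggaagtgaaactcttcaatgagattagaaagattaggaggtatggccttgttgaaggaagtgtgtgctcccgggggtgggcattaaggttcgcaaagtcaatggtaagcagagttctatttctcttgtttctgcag
Cbr2: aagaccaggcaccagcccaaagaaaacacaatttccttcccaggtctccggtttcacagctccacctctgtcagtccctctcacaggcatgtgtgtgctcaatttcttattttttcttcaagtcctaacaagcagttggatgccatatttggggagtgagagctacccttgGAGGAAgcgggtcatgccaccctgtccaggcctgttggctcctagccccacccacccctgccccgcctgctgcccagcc
F13a1: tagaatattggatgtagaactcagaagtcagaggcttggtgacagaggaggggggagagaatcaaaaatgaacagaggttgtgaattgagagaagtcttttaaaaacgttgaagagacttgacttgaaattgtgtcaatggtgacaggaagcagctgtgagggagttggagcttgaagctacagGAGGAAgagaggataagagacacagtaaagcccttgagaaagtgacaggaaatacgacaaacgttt
Folr2 held 1 TGCTGA and no GAGGAA, while Cbr2 and F13a1 held 1 GAGGAA each and no TGCTGA. Of 27025 promoters of this length, GAGGAA was in 23.1% and TGCTGA in 15.8%, so these matches are a description of the windows and no more.

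Each group was 1 library, so no difference between groups has a replicate check, and no test was run. Intervals are 95% and cover counting error only (exact Poisson for levels, exact binomial for shares). Because UMIs of 1 cell are not independent, the intervals of levels can be too narrow, and the spread between animals was not measured. The libraries held 1416 to 3272 cells in the myeloid gate, and the members had median UMIs of 10143, 8228, 10326 and 8212.5 in the unamputated, 12 dpa, 17 dpa and 28 dpa libraries. At 12 dpa only 35 members were found, and 1 of them held 13.4% of all their UMIs. Among members with at least 2 UMIs of Y-linked genes and no Xist, or the reverse, 199, 0, 357 and 798 were called male and 0, 17, 0 and 0 female, in the same order. No library's members held both calls although its label says pooled, and sex and time cannot be told apart in a comparison with 12 dpa. Between 19 and 87 barcodes were shared by each pair of libraries, and 1 member barcode was shared, between 17 and 28 dpa.

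The members were a small population in unamputated tissue and at 12 dpa and the largest of the 5 myeloid sums at 28 dpa. They numbered 251 of 11954 cells in the unamputated library (2.10%, interval 1.85 to 2.37), 35 of 6942 at 12 dpa (0.50%, 0.35 to 0.70), 545 of 8693 at 17 dpa (6.27%, 5.77 to 6.80) and 1596 of 11677 at 28 dpa (13.7%, 13.05 to 14.3). The order was 12 dpa, unamputated, 17 dpa, 28 dpa. These intervals did not overlap, but they take the cells within a library as the unit and give no measure of the spread between animals. As a share of the myeloid gate they were 7.67%, 2.47%, 24.2% and 54.7%, from unamputated to 28 dpa. Cells of the Ms4a7 sum were 9.29%, 12.1%, 7.66% and 2.83% of all cells, highest at 12 dpa and lowest at 28 dpa. With every cell thinned to 2000 UMIs before the rule, the members were 1.13%, 0.226%, 4.60% and 10.0%, in the same order as without thinning. Shares depend on the other cells that survived digestion and the sort, and fewer cells of a type cannot be told apart here from fewer recovered. They also depend on the levels of the other sums. In the myeloid gate 746, 202, 822 and 1721 cells had at least 4 UMIs of the rule genes, whichever sum led. These counts differed between libraries by a smaller fold than the counts of members.

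**Figure D1:**
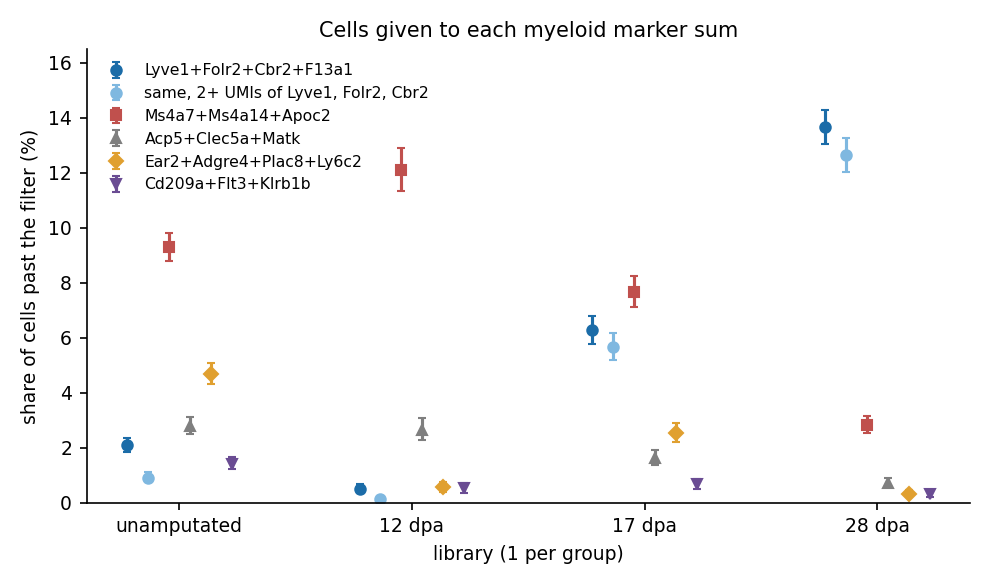
Share of cells past the filter (%, y axis) given to each myeloid sum in each library (x axis, 1 library per group), with exact binomial 95% intervals as bars. The members (dark blue) were 2.10%, 0.50%, 6.27% and 13.7% from left to right, and those with at least 2 UMIs of Lyve1, Folr2 and Cbr2 (light blue) 0.920%, 0.144%, 5.66% and 12.6%.

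At the edge of the rule, 16, 3, 13 and 57 members had a sum of exactly 4, and 7, 2, 9 and 44 cells that led on this sum had 3 and were left out. The median sum was 15 UMIs in the unamputated library, 8 at 12 dpa, 28 at 17 dpa and 22.5 at 28 dpa. A further 472, 163, 257 and 99 cells of the myeloid gate had a sum of at least 4 that was below another sum, and most of these were below the Ms4a7 sum, such as 320 of the 472 in the unamputated library. Ties left out 23, 4, 20 and 26 cells. Outside the gate, 194, 91, 68 and 104 cells had a sum of at least 4, of which 170, 82, 37 and 49 had a Cdh5 UMI, a gene of endothelial cells, some of which also carry Lyve1.

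Lyve1, Folr2 or Cbr2 was detected in most members at 17 and 28 dpa and in a smaller share of them in the other libraries. These genes chose the members, so their detection describes how the rule was met and does not test a name for the cells. F13a1 was the only rule gene detected in 124 of 251 unamputated members (49.4%, 43.1 to 55.8) and in 23 of 35 at 12 dpa (65.7%, 47.8 to 80.9). It was the only one in 36 of 545 at 17 dpa (6.61%, 4.67 to 9.03) and in 56 of 1596 at 28 dpa (3.51%, 2.66 to 4.53). All 4 genes were detected in 6.37% and 5.71% of unamputated and 12 dpa members and in 39.6% and 54.6% at 17 and 28 dpa. Members with F13a1 alone were shallower than those with at least 2 UMIs of the other rule genes, with median UMIs of 9176.5 against 11488 in the unamputated library and 5264 against 8464 at 28 dpa.

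**Figure D2:**
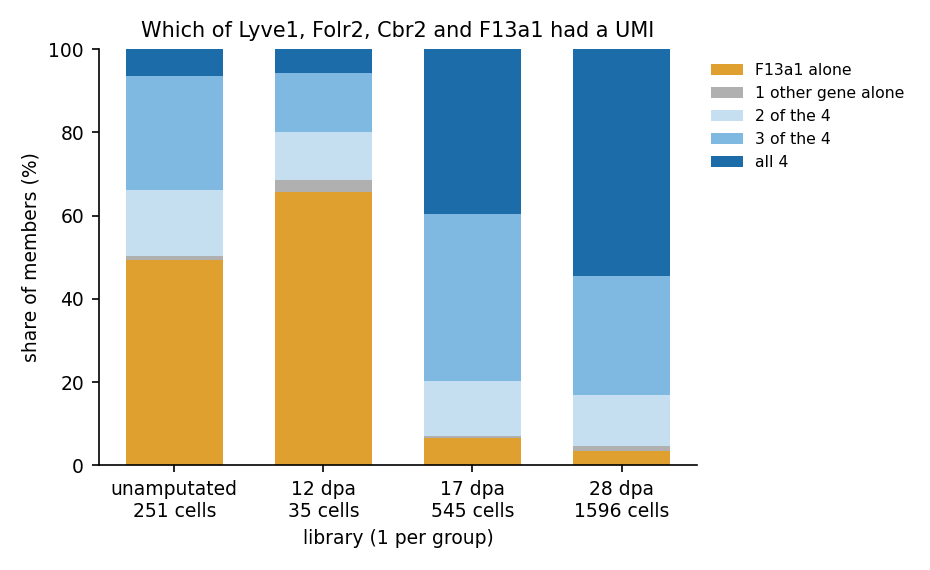
Share of members (%, y axis) by how many of the 4 rule genes had a UMI in the cell, in each library (x axis). F13a1 alone (orange) made up 49.4% of unamputated and 65.7% of 12 dpa members, against 6.61% and 3.51% at 17 and 28 dpa.

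Levels of the rule genes, which chose the members, are given as CPM, the UMIs of a gene scaled to a total of 1e6 member UMIs in a library, and carry no test. Lyve1 was at 66.1 CPM in the unamputated library, 75.6 at 12 dpa, 378 at 17 dpa and 747 at 28 dpa. Folr2 was at 174, 157, 512 and 476 CPM, and Cbr2 at 137, 163, 554 and 272 CPM, both highest at 17 dpa. F13a1 was at 1473, 859, 2091 and 1777 CPM, with a smaller fold between its highest and lowest library than the other 3 genes. Its share of the rule sum was 79.6%, 68.4%, 59.1% and 54.3%, and that of Lyve1 was 3.57%, 6.02%, 10.7% and 22.8%. With cells thinned to 2000 UMIs, F13a1 was detected in 86.5%, 80.0%, 85.1% and 83.6% of members, against 0.467%, 0.217%, 0.961% and 2.59% of cells in a fibroblast gate, whose median UMIs before thinning were 20920, 15770, 12445 and 9047.5.

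Within a library, members with F13a1 alone and members with at least 2 UMIs of Lyve1, Folr2 and Cbr2 had different profiles. This split was chosen after the values were seen and is a description. In the unamputated library C1qa, a complement C1q chain, was at 1837 CPM with the other rule genes and 189 CPM with F13a1 alone. Pf4, a chemokine of platelets and resident macrophages, was at 2581 against 206 CPM, and Mrc1, the mannose receptor, at 2413 against 387 CPM. The opposite order held for monocyte genes, with Ly6c2 at 5.81 against 233 CPM and Plac8 at 3.87 against 137 CPM, although the rule capped both through the Ear2 sum. Ccr2, the receptor that brings monocytes out of blood and no gene of the rule, was at 152 against 544 CPM. Cd74, the MHC class II invariant chain, was at 1013 against 3366 CPM, and Fn1, fibronectin, at 760 against 2942 CPM.

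The same order was seen at 17 dpa, where C1qa was at 2844 against 583 CPM, Ccr2 at 66.4 against 375 CPM and Cd74 at 447 against 3332 CPM. At 28 dpa the 2 kinds of member were closer for several resident genes: Mrc1 was at 1420 against 1076 CPM, and Selenop, which carries selenium, was at 1763 against 2022 CPM. C1qa still differed at 28 dpa, at 2413 against 922 CPM, as did Cd74, at 105 against 1231 CPM. At 12 dpa, with 10 and 23 cells, Cd74 was at 22.0 against 2540 CPM. Genes of other cell types also differed between the 2 kinds of member. The 8 fibroblast genes summed to 1917, 10099, 9563 and 11444 CPM with F13a1 alone, from unamputated to 28 dpa, against 4081, 693, 3862 and 4046 CPM with the other rule genes. The 10 neutrophil genes summed to 2273, 225, 2985 and 23.3 CPM with F13a1 alone, against 176, 33.0, 897 and 30.5 CPM, and the 6 mural genes to 410, 76.6, 797 and 2016 CPM, against 790, 231, 154 and 453 CPM. The part of other cells' RNA in the contrast between the 2 kinds of member was not tested. Because the mix of these 2 kinds of member differed between libraries, the main comparisons below are given over all members and, for most lists and many of the named genes, again over those with at least 2 UMIs of Lyve1, Folr2 and Cbr2, which numbered 110, 10, 492 and 1477.

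**Figure D3:**
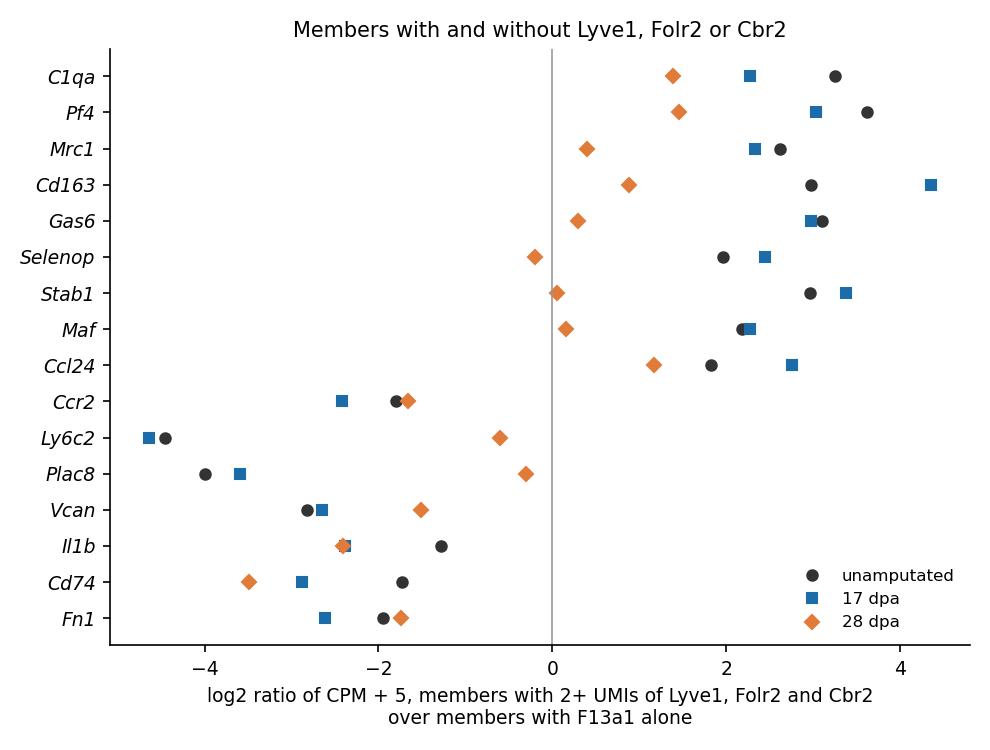
Log2 ratio of CPM plus 5 (x axis) between members with at least 2 UMIs of Lyve1, Folr2 and Cbr2 and members with F13a1 alone, for 16 genes (y axis) in the unamputated, 17 dpa and 28 dpa libraries. C1qa lay at 3.25, 2.28 and 1.38 and Cd74 at -1.73, -2.88 and -3.49, while Selenop at 28 dpa lay at -0.20.

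Markers of the macrophage lineage were present in the members of every library, with UMIs of all 12 genes of that list and a sum of 6717, 4894, 10267 and 7842 CPM. Csf1r, 1 of the 12, was also part of the myeloid gate, which required UMIs of Csf1r, Lyz2 and C1qb, so its presence was set by the rule and the sums are a description. The 8 genes of lymphatic endothelium, the other common source of Lyve1, summed to 173, 260, 89.2 and 128 CPM, against 362, 367, 116 and 109 CPM over all cells. Most of that sum was Pdpn, podoplanin, which other cells also carry, at 169, 251, 73.4 and 118 CPM, while Mmrn1 had no UMI in any library's members and Prox1 had none at 12 and 17 dpa. Endothelial genes summed to 20.7, 18.1, 16.2 and 24.1 CPM, against 739, 610, 328 and 275 CPM over all cells. The gate left out cells with a Cdh5 UMI, so low levels of endothelial and lymphatic genes were in part set by the rule. The 8 fibroblast genes summed to 3889, 7002, 4251 and 4327 CPM, against 22676, 31435, 31126 and 19961 CPM over all cells. Of those tested, 3 of 7, 0 of 5 and 2 of 6 were 2-fold higher at 12, 17 and 28 dpa, and 0 were lower. Over members with at least 2 UMIs of Lyve1, Folr2 and Cbr2, 5 of 5 were lower at 12 dpa. There 0 of 5 passed either way at 17 dpa, and 1 of 5 was higher and 0 lower at 28 dpa. The 10 neutrophil genes summed to 1025, 169, 984 and 31.6 CPM, against 9514, 342, 6607 and 147 CPM over all cells. Of the neutrophil genes tested, 5 of 5 were 2-fold lower at 12 dpa, 2 of 6 lower and 0 higher at 17 dpa, and 5 of 5 lower at 28 dpa (median log2 ratios -3.13, -0.34 and -3.56). Over members with at least 2 UMIs of Lyve1, Folr2 and Cbr2, 2 of 2 were lower at 12 and 28 dpa and 4 of 4 higher at 17 dpa (median 2.41). The 8 keratinocyte genes summed to 1028, 317, 914 and 1160 CPM, against 5230, 3924, 3683 and 6651 CPM over all cells, and over members with the other rule genes 4 of 8 were 2-fold higher at 28 dpa and 0 lower. Genes of mural cells, which wrap vessels, summed to 729, 127, 185 and 482 CPM, against 2323, 1658, 2089 and 2116 CPM over all cells, and 4 of 4 tested were 2-fold lower at 17 dpa. Schwann cell genes summed to 71.3, 87.7, 164 and 66.5 CPM, against 122, 86.6, 120 and 106 CPM over all cells. Scrublet, a doublet caller, marked 9.96%, 2.86%, 13.2% and 15.3% of members as possible doublets, against 12.9%, 6.40%, 8.89% and 13.3% of all cells past the filter. The number marked in a library was set in advance at 0.8% per 1000 barcodes, so it is no measure of a difference between libraries. With Scrublet's own threshold 12, 1, 32 and 164 members were called. The part of free RNA and doublets in the levels below was not tested.

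Beside the cells of the other 4 myeloid sums in the same library, which the rule itself set apart, the members carried more of several genes that the rule did not name. This is a description only. Ccl6, a chemokine, was at 473 CPM in unamputated members against 90.01 in the other myeloid cells, at 278 against 64.9 at 12 dpa, at 694 against 122 at 17 dpa and at 704 against 181 at 28 dpa. Ltc4s, leukotriene C4 synthase, was at 73.0 against 18.7, 75.6 against 23.1, 243 against 32.8 and 362 against 67.2 CPM. Ccl7, Aqp1 (a water channel), Psd3, Wwp1, Rgl1, Itsn1, Stxbp6, Eps8 and Stard8 were also among the 12 genes whose smallest ratio over the 4 libraries was largest.

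The comparisons over time used log2 ratios of CPM plus 5 against the unamputated library, so changes of low genes are understated, and the counts cover genes that differed 2-fold or more and reached 50 CPM in either library. All 3 comparisons share that library. At 17 dpa 318 of 4148 genes differed 2-fold, which is 7.67%, with 96 higher and 222 lower (2.31% and 5.35%). At 28 dpa it was 534 of 4194, or 12.7%, with 161 higher and 373 lower (3.84% and 8.89%). At 12 dpa it was 545 of 4247, or 12.8% (5.46% higher and 7.37% lower). Over members with the other rule genes, 3.4% of genes differed 2-fold at 17 dpa (1.06% higher and 2.34% lower) and 7.37% at 28 dpa (2.34% higher and 5.04% lower). With only 10 such cells, the 12 dpa value was 27.8% (8.12% higher and 19.7% lower). Of the genes past the fold over all members, 36 of 96 higher and 81 of 222 lower were also past it at 17 dpa in members with the other rule genes, as were 84 of 161 and 183 of 373 at 28 dpa. At 12 dpa it was 48 of 232 higher and 225 of 313 lower, and 155 of those 232 had the opposite sign over members with the other rule genes. The genes of opposite sign numbered 0 and 6 at 17 dpa and 0 and 2 at 28 dpa, among those higher and lower.

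Some receptors typical of resident macrophages were 2-fold higher at 17 dpa over all members, but none over members with the other rule genes. Of 15 genes of that list tested at 17 dpa, 7 were 2-fold higher and 0 lower, with a median log2 ratio of 0.48 against -0.00 over all genes of at least 10 CPM. Over members with the other rule genes it was 0 higher and 1 lower of 16, with a median of 0.08. Cd163, the haemoglobin scavenger receptor, was at 62.5 CPM in the unamputated library, 3.02 at 12 dpa, 149 at 17 dpa and 72.4 at 28 dpa. Stab1, a scavenger receptor, was at 207, 127, 442 and 229 CPM, and Ednrb, an endothelin receptor, at 79.9, 3.02, 208 and 86.9 CPM. For these receptors the 17 dpa library was highest and the 12 dpa library lowest. In members with the other rule genes the log2 ratio at 17 dpa was 0.42 for Stab1, against 1.08 over all members, and 0.73 for Ednrb, against 1.32. At 28 dpa 1 of 15 was higher and 2 lower, with a median of 0.13, and over members with the other rule genes 0 of 16 were higher and 3 lower, with a median of -0.47. At 12 dpa, with few cells, 0 of 13 were higher and 5 lower (median -0.90). Over members with the other rule genes 1 of 16 was higher and 7 lower there (median -1.09). Clec10a, a lectin, was at 156, 48.4, 149 and 64.5 CPM, and Cd209f, another lectin, at 56.2, 0, 44.4 and 8.40 CPM, with a log2 ratio of -2.19 at 28 dpa for Cd209f and of -3.28 over members with the other rule genes. Timd4, a receptor for dying cells and a mark of self-maintaining macrophages in several organs, was low throughout, at 17.4, 6.05, 36.2 and 25.3 CPM.

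Of the enzymes and secreted proteins of resident macrophages, 20 of 24 were above the unamputated level at 17 dpa over all members, but few by 2-fold. At 17 dpa 5 of 19 were 2-fold higher and 1 lower (median 0.59), and 2 of 18 higher and 0 lower over members with the other rule genes (median 0.21). At 28 dpa 3 of 19 were higher and 1 lower (median 0.08), against 2 of 18 higher and 3 lower over members with the other rule genes (median -0.40). Selenop was at 1632, 423, 3150 and 1793 CPM, highest at 17 dpa. Pf4 was at 1462, 1158, 3442 and 3551 CPM, higher in both later libraries, with a log2 ratio of 1.28 at 28 dpa over all members and 0.49 over those with the other rule genes. Ltc4s was higher at both later times under either choice of members: its log2 ratio was 1.67 (1.42 to 1.92) at 17 dpa and 2.24 (2.02 to 2.46) at 28 dpa, and 1.06 and 1.59 over members with the other rule genes. Apoe, which carries lipid, was at 5155, 2878, 7083 and 2922 CPM, highest at 17 dpa. Igf1, a growth factor, was at 102, 30.2, 178 and 83.4 CPM.

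Fxyd2 and Aqp1 had the 2 highest ratios at 28 dpa among the genes that met the naming rule. Fxyd2, a regulator of the sodium pump, was at 176 CPM in the unamputated library, 190.5 at 12 dpa, 705 at 17 dpa and 3104 at 28 dpa. Over all members its level was similar in the first 2 libraries, although it was at 275 and 539 CPM there over members with the other rule genes, and it was far higher in the last, with a log2 ratio of 4.11 (3.97 to 4.24) at 28 dpa and 3.53 over members with the other rule genes. With cells thinned to 2000 UMIs, Fxyd2 was detected in 13.1%, 20%, 53.9% and 87.0% of members, against 0.545%, 0.651%, 1.12% and 4.97% in the fibroblast gate. Fxyd2 was not particular to the members, since cells of the Ms4a7 sum had 319, 326, 1047 and 2380 CPM. Aqp1 was at 90.4, 175, 315 and 1127 CPM over all members, in the order of time, and at 141, 473, 327 and 1156 CPM over members with the other rule genes, where 12 dpa was above 17 dpa, with a log2 ratio of 3.57 (3.38 to 3.76) at 28 dpa and 2.99 over members with the other rule genes. Fibroblast-gate cells also carried Aqp1, at 291, 275, 564 and 1054 CPM, and cells of the Ms4a7 sum had 21.8, 29.0, 134 and 510.5 CPM.

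MHC class II transcripts, which present peptides to T cells, were lower at 17 dpa than in the unamputated library and lower again at 28 dpa, in both choices of members. Cd74 was at 2047 CPM in the unamputated library, 1723 at 12 dpa, 665 at 17 dpa and 157 at 28 dpa. H2-Aa, the class II alpha chain, was at 937, 508, 268 and 56.2 CPM, and its partner H2-Ab1 at 937, 822, 315 and 69.7 CPM. Over all members the unamputated library was highest and the 28 dpa library lowest for each. Over members with the other rule genes the 12 dpa library, with 10 cells, was lowest for Cd74, at 22.0 CPM against 105 at 28 dpa, and 4 of 4 tested genes of the list were 2-fold lower there than in the unamputated library (median -4.02). At 17 dpa 4 of the 5 tested genes of the list were 2-fold lower (median -1.29, and 3 of 4 with a median of -1.09 over members with the other rule genes). At 28 dpa all 5 tested were lower (median -2.46, and 4 of 4 with a median of -2.05), including the peptide-loading chains H2-DMa at 107, 87.7, 63.1 and 26.7 CPM and H2-DMb1. The log2 ratio of H2-Aa at 28 dpa was -3.95 (-4.09 to -3.80), and -3.59 over members with the other rule genes.

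Per cell, members differed widely in these transcripts. Class II UMIs were absent from 21.5%, 22.9%, 31.2% and 60.2% of members. The 90th percentile was 1.93%, 1.42%, 0.405% and 0.035% of a cell's UMIs, so the upper tail of the members was smaller in the later libraries. Of members with the other rule genes, 22.7%, 70%, 32.7% and 61.0% had none, with 7 of 10 cells behind the 12 dpa value, and the 90th percentile was 0.577%, 0.010%, 0.180% and 0.027%. In cells of the Ms4a7 sum 16.4%, 12.98%, 18.0% and 37.3% had none, and in those of the Cd209a sum, with genes of dendritic cells, no cell had none in any library. With cells thinned to 2000 UMIs, H2-Aa, H2-Ab1 or Cd74 was detected in 46.6%, 45.7%, 27.5% and 11.5% of members, against 2.34%, 2.43%, 2.95% and 2.01% in the fibroblast gate. Unthinned, the shares of members were 62.5%, 71.4%, 52.5% and 25.8%.

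**Figure D4:**
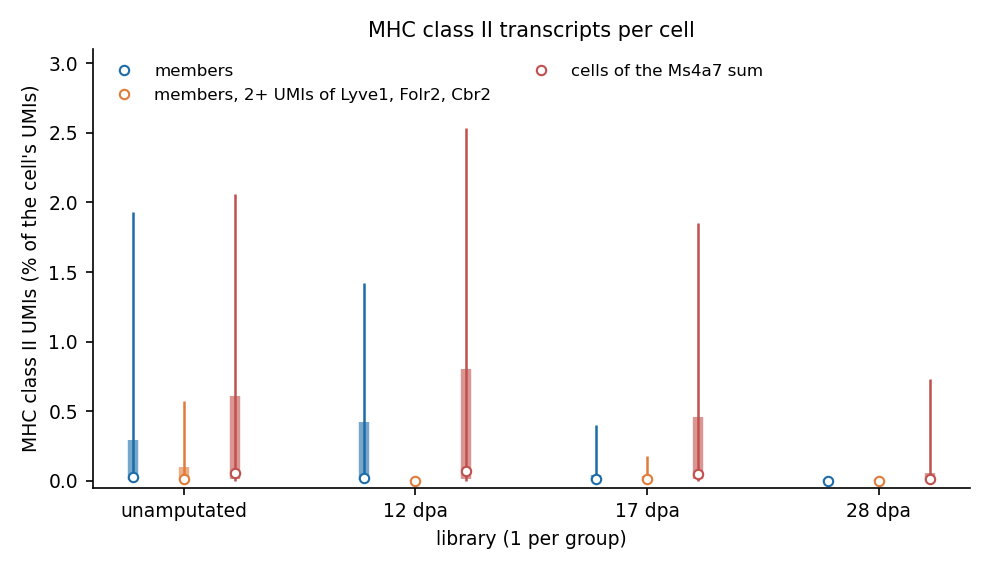
MHC class II UMIs as a percent of each cell's UMIs (y axis) in each library (x axis), for members, members with at least 2 UMIs of Lyve1, Folr2 and Cbr2, and cells of the Ms4a7 sum. Circles are medians, boxes the 25th to 75th percentile and lines the 10th to 90th percentile, and the upper end of the members' line was 1.93% in the unamputated library and 0.035% at 28 dpa.

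Most chemokine receptors were lower in the later libraries too. Ccr2 was at 312, 157, 86.2 and 26.7 CPM, lower in each later library. Its log2 ratio was -1.80 at 17 dpa and -3.32 (-3.53 to -3.11) at 28 dpa, and -1.14 and -2.42 over members with the other rule genes. Cx3cr1, the fractalkine receptor of monocytes and macrophages, was at 112, 130, 60.9 and 24.2 CPM. At 17 dpa 4 of 5 tested receptors were 2-fold lower, against 1 of 4 over members with the other rule genes. At 28 dpa 4 of 6 were lower and 1, Ackr3, a scavenging receptor, was higher, and over members with the other rule genes 3 of 5 were lower and 1 higher. Ackr3 was at 15.4, 12.1, 21.1 and 77.6 CPM, and the fibroblast gate held 156, 105, 229 and 429 CPM of it.

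Among chemokines, Ccl24, an eosinophil attractant, was higher at both later times. It was at 53.9 CPM in the unamputated library, 30.2 at 12 dpa, 284 at 17 dpa and 272 at 28 dpa. The later log2 ratios were 2.29 (2.02 to 2.57) and 2.23 (1.99 to 2.49), and 1.87 and 1.75 over members with the other rule genes. Cells of the Ms4a7 sum had 7.16, 5.63, 27.6 and 51.2 CPM. Ccl8, another resident macrophage chemokine, was at 41.7, 12.1, 121 and 29.6 CPM, highest at 17 dpa, with a log2 ratio there of 1.43 and of 0.66 over members with the other rule genes. Ccl4, a chemokine of activated macrophages, was at 263, 211.6, 121 and 55.3 CPM, and Ccl3 at 179, 115, 118 and 64.6 CPM, both lowest at 28 dpa. Of 12 chemokines tested, 3 were higher and 1 lower at 17 dpa, and 3 higher and 3 lower at 28 dpa. Over members with the other rule genes it was 1 higher and 1 lower of 12 at 17 dpa, and 1 higher and 4 lower of 13 at 28 dpa.

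Inflammatory genes were lower at 28 dpa. Il1b, interleukin 1 beta, was at 357, 308, 138 and 62.5 CPM. Ptgs2, the inducible prostaglandin synthase, was at 184, 109, 32.3 and 8.87 CPM, with a log2 ratio of -3.77 at 28 dpa and -2.79 over members with the other rule genes. Both were lower in each later library over all members, while over those with the other rule genes neither had a UMI in the 10 cells of 12 dpa. Clec4e, a pattern receptor, was at 126, 215, 40.1 and 26.8 CPM, and its log2 ratio at 28 dpa went from -2.04 to -0.49 over members with the other rule genes. Of 18 tested, 4 were lower and 0 higher at 17 dpa and 11 lower and 0 higher at 28 dpa, and 7 of 15 were lower at 28 dpa over members with the other rule genes (medians -1.17 and -0.71). Genes that respond to tissue digestion, given with the transcription factors, had a median of -0.60 at 28 dpa, and the 10 neutrophil genes summed to 1025 CPM in the unamputated library and 31.6 at 28 dpa (176 and 30.5 over members with the other rule genes). Cells of a neutrophil gate also carried Il1b, at 1553 and 4617 CPM in those libraries. The part of either list in the inflammatory genes was not tested. Other genes with the lowest ratios at 28 dpa were Cd52, a leukocyte surface glycoprotein, at 358, 393, 80.7 and 17.2 CPM, and Plbd1, Gpr141 and Hp (haptoglobin), which are also carried by monocytes or neutrophils. Hp was at 66.1, 9.07, 10.3 and 0.605 CPM, and its log2 ratio of -3.66 became -1.04 over members with the other rule genes. At 17 dpa the lowest were Gpr141 (-2.58), Plbd1 (-2.51), Ms4a4c (-2.48), Ptgs2 (-2.34), Gm15987, Gsr (-2.27), Cytip and Plcb1, and the ratios of Gsr, Plcb1 and Ms4a4c were -0.23, -0.41 and -0.65 over members with the other rule genes.

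Proliferation genes were higher at 17 dpa. Mki67 was at 58.8 CPM in the unamputated library, 39.3 at 12 dpa, 199 at 17 dpa and 93.1 at 28 dpa. Top2a, the topoisomerase of dividing cells, was at 30.9, 12.1, 160 and 77.5 CPM, and Prc1, which builds the spindle midzone, at 11.5, 6.05, 82.9 and 44.1 CPM. The 17 dpa library was the highest for all 3, and 28 dpa was next. The log2 ratios at 17 dpa were 1.67, 2.20 and 2.41, and 1.62, 2.48 and 2.59 over members with the other rule genes. Of 12 tested, 7 were higher and 0 lower at 17 dpa (median 1.43), and 6 of 12 over members with the other rule genes (median 1.31). At 28 dpa 1 of 8 was higher (median 0.62). With cells thinned, Mki67 or Top2a was detected in 7.97%, 5.71%, 15.3% and 10.7% of members, and unthinned in 24.7%, 17.1%, 32.5% and 23.7%. Fibroblast-gate cells, some of which also divide, had 7.75%, 6.47%, 2.53% and 3.44% with cells thinned.

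**Figure D5:**
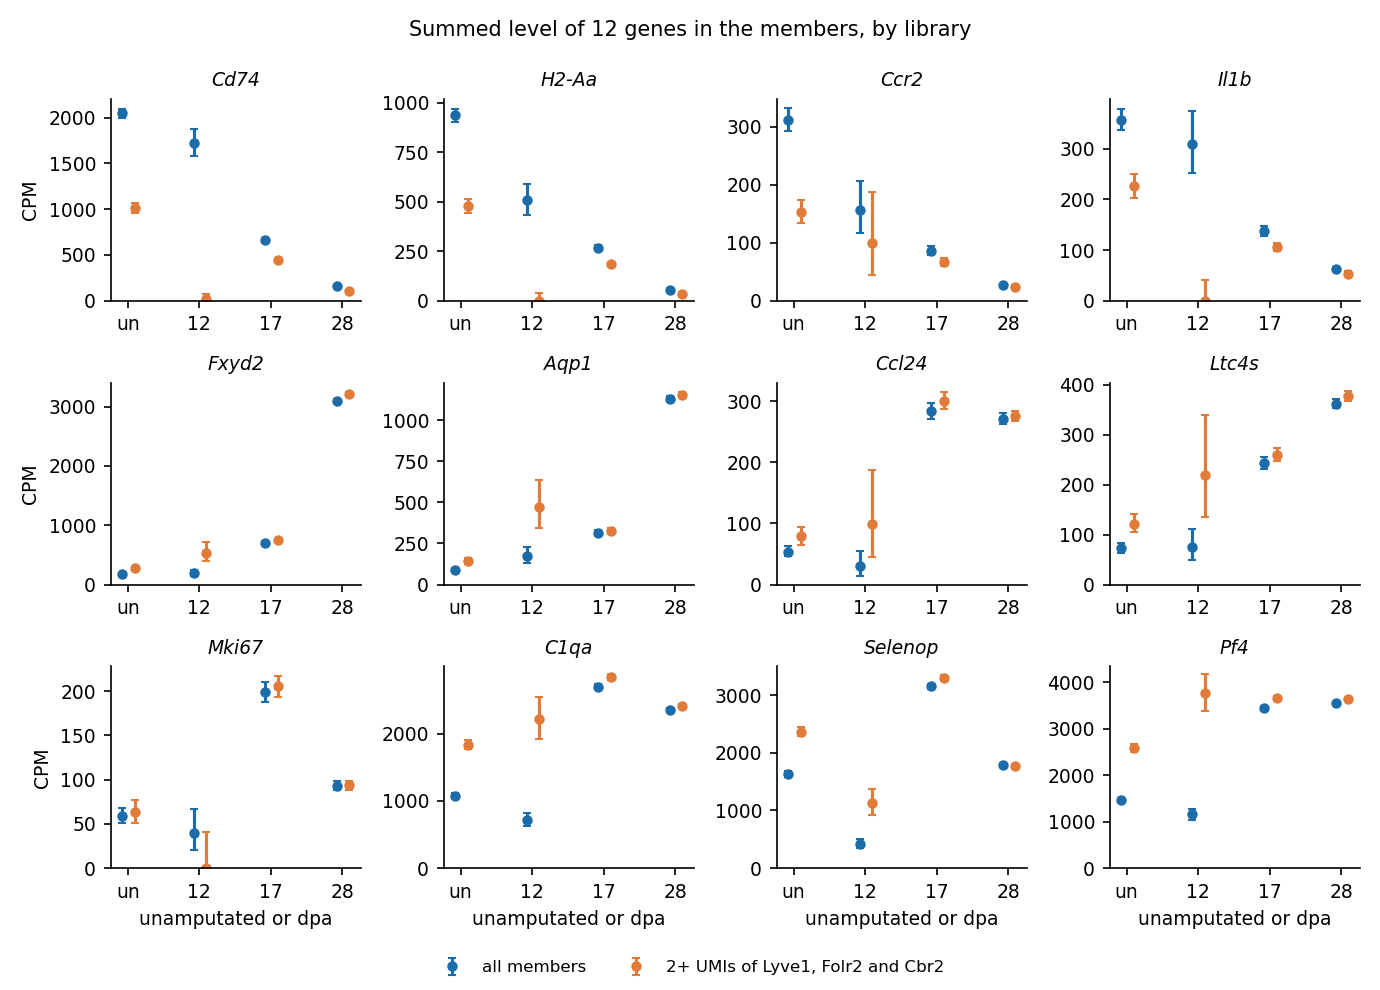
Summed level (CPM, y axis) of 12 genes in the unamputated, 12, 17 and 28 dpa libraries (x axis) over all members (blue) and members with at least 2 UMIs of Lyve1, Folr2 and Cbr2 (orange), with exact Poisson 95% intervals as bars. Cd74, H2-Aa, Ccr2 and Il1b were lowest over all members at 28 dpa, Fxyd2, Aqp1 and Ltc4s were highest there, and Mki67 was highest at 17 dpa.

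Growth factors and matrix genes differed in both directions over all members, with 3 higher and 7 lower of 18 tested at 17 dpa (median -0.37) and 4 higher and 7 lower of 19 at 28 dpa (median -0.31). In those with the other rule genes it was 0 higher and 2 lower of 15 at 17 dpa and 2 higher and 3 lower of 17 at 28 dpa. Fgfr1, a fibroblast growth factor receptor, was at 54.6, 69.5, 158 and 246 CPM, and Timp2, a metalloproteinase inhibitor, at 476, 768, 1134 and 1220 CPM, both in the order of time over all members. Over members with the other rule genes they were not, at 85.8, 66.0, 164 and 250.1 CPM for Fgfr1 and 710.5, 1309, 1189 and 1228 CPM for Timp2. Ctsk, a collagen-degrading cathepsin, was at 90.4, 197, 215 and 550 CPM, with a log2 ratio of 2.54 at 28 dpa under either choice of members. It was higher in the cells of the other myeloid sums, at 1130, 1012, 1133 and 2206 CPM, and highest at 28 dpa there too. The 6 osteoclast genes, Ctsk among them, summed to 161, 339, 248 and 569 CPM in members, against 545, 587, 700 and 723 CPM over all cells. The part of osteoclast RNA in the members' Ctsk was not tested. Vegfa, which drives vessel growth, was at 116, 163, 21.2 and 10.7 CPM, lower in the later libraries. Thbs1, thrombospondin 1, was at 270, 136, 75.3 and 34.0 CPM, with a log2 ratio of -2.82 at 28 dpa over all members and -0.70 over those with the other rule genes. Vcan, versican, had opposite signs in the 2 choices of members, with a log2 ratio at 28 dpa of -1.17 over all members and 0.55 over those with the other rule genes. Spp1, osteopontin, was at 132, 169, 44.7 and 698 CPM, and 1 member held 57.4% of its UMIs at 28 dpa.

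Most tested genes of the complement and of the lysosome, lipid and iron lists were within 2-fold. At 17 dpa 3 of 10 complement genes tested were higher and 1 lower (median 0.43), against 0 higher and 0 lower of 9 over members with the other rule genes (median 0.17). At 28 dpa 1 of 10 complement genes tested was higher and 1 lower, with a median of 0.33 over all members and -0.12 over those with the other rule genes. C1qa was at 1079, 720, 2699 and 2355 CPM, with log2 ratios of 1.32 and 1.12 at 17 and 28 dpa and 0.63 and 0.39 over members with the other rule genes. C3, the central component, was at 76.3, 93.7, 18.9 and 9.74 CPM, with a log2 ratio of -2.46 at 28 dpa and -1.46 over members with the other rule genes. Of 27 lysosome, lipid and iron genes, 2 were higher and 0 lower at 17 dpa and 1 higher and 2 lower at 28 dpa. Over members with the other rule genes it was 1 higher and 0 lower of 28 at 17 dpa and 1 higher and 5 lower of 28 at 28 dpa (median -0.24). Trem2, a lipid receptor, was at 389, 523, 673 and 722 CPM, and Lpl, lipoprotein lipase, at 414, 311, 311 and 156 CPM.

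Among transcription factors, Maf, which helps hold macrophages in their differentiated state, was at 706, 496, 1079 and 861 CPM. Runx3 was at 44.4, 39.3, 8.43 and 4.57 CPM, lower in the later libraries, and 6 of 29 factors were 2-fold lower at 28 dpa, against 1 of 29 over members with the other rule genes. Dbp, a clock-controlled factor, was at 6.57, 9.07, 36.2 and 64.4 CPM, and Nr1d1, a clock repressor, at 15.1, 24.2, 25.3 and 66.6 CPM, both highest at 28 dpa. The fibroblast gate had Dbp at 14.5, 52.1, 31.0 and 95.8 CPM. Of 6 interferon-response genes tested, 1 was higher at 17 dpa: Ifi27l2a was at 104, 227, 382 and 196 CPM, with a log2 ratio of 1.83 at 17 dpa and 2.55 over members with the other rule genes. Of 21 genes that respond to tissue digestion, 3 had a log2 ratio above 0 in each comparison, with medians of -0.52, -0.34 and -0.60 at 12, 17 and 28 dpa. Of them 2, 1 and 1 were 2-fold lower and none higher, and 7, 2 and 3 were lower over members with the other rule genes (medians -0.74, -0.40 and -0.67). Fos was at 1104, 611, 1121 and 633 CPM.

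Several of the highest ratios at 28 dpa were for genes that fibroblasts carry at higher levels. Ly6a was at 7.89, 112, 28.3 and 140 CPM in members and at 286, 238, 547 and 1154 CPM in the fibroblast gate. Ly6c1, Tnxb (tenascin X) and Igfbp6 (an insulin-like growth factor binding protein) were at 86.4, 90.1 and 293 CPM in members at 28 dpa, against 768, 640 and 2383 CPM in the fibroblast gate. These genes were higher in the fibroblast gate of the 28 dpa library too, and the part of fibroblast RNA in the members' levels was not tested. Mamdc2 was at 7.89, 21.2, 31.7 and 75.03 CPM in members and at 30.7, 28.7, 56.8 and 47.2 CPM in the fibroblast gate.

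The 12 dpa profile rested on 35 cells, and much of it on the deepest. That member had 44310 UMIs, with 9 of F13a1 and none of the other rule genes, 296 of Col1a1 and 101 of Zfp521. It held 94.4% of the members' Zfp521 UMIs at 12 dpa, 92.0% of Glis3, 94.3% of Gulp1 and 91.1% of Itgbl1, which were among the 8 highest ratios. Without it their log2 ratios went from 3.07, 2.83, 2.67 and 2.54 to -0.62, -0.52, -0.66 and -0.58. The lowest were Ccdc152 (-3.77, interval -4.58 to -2.17), Ednrb (-3.40, -4.23 to -1.78) and Cd163 (-3.07, -3.92 to -1.43), each with 1 UMI in the 12 dpa members, and then Mgp (-3.02), Cxcl1 (-3.01), Ly86, Samsn1 and Gm15987, with 2 to 8 UMIs each. The count of genes past the fold at 12 dpa was 687 of 4138 without that cell, with 152 higher and 535 lower.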

How the data were processed

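The 4 libraries were deposited as UMI counts per gene and barcode, which the authors made with Cell Ranger 7.1.0 on mm10, per the submitters' processing notes. Filters, the marker rule and the other sums were applied to these counts as deposited. Member UMIs were summed per library and divided by their total to give CPM, and ratios were log2 of CPM plus 5. With 1 library per group no model was fitted. Genes were called past 2-fold where the higher library had at least 50 CPM. Detection was also taken after thinning each cell to 2000 UMIs, which left out 0, 0, 3 and 21 members. Scrublet in scanpy 1.11.5 marked doublets, and they were kept in the main values. Named genes were the 8 highest and 8 lowest ratios of each comparison among genes seen in at least 10% of members of the higher library and not below 0.1 times their CPM in a gate of another cell type, after leaving out rule genes, sex-linked, mitochondrial, haemoglobin, immunoglobulin and other cell types' marker genes; beside other myeloid cells, the 12 with the highest smallest ratio; and genes of fixed lists. The members and lists were chosen with earlier results of these data known. Gene positions are from GENCODE M21. The calculations were checked on simulated counts. Mx1 was not among the features, so that list had 25 of 26 genes. A few genes that met the naming rule or stood in the lists are not reported here.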

Additional observations from a re-analysis of the deposited data

How the results depend on the processing

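No paired analysis was possible because each group holds 1 library. The order of the libraries by member share held under 9 of the 10 alternatives run. The exception kept only members with at most 2 UMIs of other cell types, which numbered 7, 0, 17 and 18 (0.0586, 0, 0.196 and 0.154% of cells), so 17 dpa was above 28 dpa, and gave too few cells for a profile. As a percent of cells past the filter, the share at 28 dpa was 12.1 under the looser filter, 16.9 under the stricter filter and 12.9 with a sum of at least 6, and the stricter filter gave 2.71 for the unamputated library and 7.34 for 17 dpa. Thinning gave 1.13, 0.226, 4.60 and 10.0, members with the other rule genes 0.920, 0.144, 5.66 and 12.6, and the 5 sums as denominator 10.3, 3.08, 33.4 and 76.5. Genes past the fold numbered 989 at 12 dpa with thinning, 1198, 138 and 303 at 12, 17 and 28 dpa over members with the other rule genes, 1018 and 522 at 12 and 17 dpa with a minimum of 20 CPM, and 291, 199 and 343 with 100 CPM. Members with the other rule genes and members without the deepest were added after the data were seen. At 12 dpa the ratio reversed for Zfp521, Glis3, Gulp1 and Itgbl1 with the stricter filter (-0.59, -0.33, -0.82 and -0.75) and without the deepest member (-0.62, -0.52, -0.66 and -0.58), for Glis3, Gulp1, Col8a1 and Srgap3 with thinning (-0.20, -1.76, -0.61 and -0.051), and for Zfp521, Gulp1, Col8a1 and Itgbl1 over members with the other rule genes (-2.56, -1.99, -2.39 and -0.22). Where a median larger than its counting error changed sign it was counted as reversed: list medians did so at 12 dpa for macrophage markers (0.30) and resident enzymes (0.032) with thinning, and over members with the other rule genes for resident enzymes at 12 dpa (0.049, or -0.15 over the genes that passed 10 CPM in all members) and complement at 28 dpa (-0.12). Apart from the deepest cell's 12 dpa genes, the cause was not tested. Of 624 list medians recomputed, 573 stayed near the main value, 47 moved and 4 reversed, and of 576 named gene ratios 429, 131 and 16. In all 33 of the 624 medians took the opposite sign, 10 of them over members with the other rule genes, among them resident receptors (0.13 to -0.47) and resident enzymes (0.08 to -0.40) at 28 dpa, and interferon response (0.60 to -0.73), clock (0.41 to -0.39) and growth and matrix genes (0.11 to -0.97) at 12 dpa. The median log2 ratio over tested genes was -0.12, -0.06 and -0.11 at 12, 17 and 28 dpa, and with it removed the percent of calls that were higher went from 42.6 to 56.6 at 12 dpa and from 30.1 to 42.2 at 28 dpa. That percent at 12 dpa was 22.1 without the deepest member, 20.4 under the stricter filter, 27.8 as a mean over members and 29.2 over members with the other rule genes. At 12 dpa the floor set for a count of 0, which was 3 UMIs over all members, equals 9.07 CPM. The upper end of the exact 95% Poisson interval is higher, and higher again over members with the other rule genes.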
